A study of Mus musculus with 1104 samples.

Results

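The subject is the change in messenger RNA of the mouse hypothalamus over 12 weeks of a high-fat diet. The 12 libraries compared, out of 1104 in a series of 13 organs, are the hypothalamus of 6 male wild-type C57BL/6 mice dissected after 12 weeks on the diet and of 6 dissected at its start (0 days). The members are all genes of the deposited count table in these 12 libraries: 20646 gene symbols, of which 15027 had enough counts to be tested. All mice were placed on a diet with 60% of its energy from fat at 8 weeks of age, so that the 0-day group was 8 weeks old and the 12-week group 20 weeks old. No mice of the same ages off the diet enter the comparison, and diet, age and day of dissection cannot be told apart. The series asks how expression in many organs moves as metabolic syndrome develops, and the comparison describes where the brain centre of energy balance stands at the end of the course.

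The hypothalamus lies at the base of the brain and regulates food intake, body temperature, hormone release and daily rhythm. In its arcuate nucleus, neurons that make Agrp and Npy raise food intake and neurons that make Pomc lower it, and both sense leptin, the hormone by which fat tissue reports its stores and which signals through Stat3. Around the neurons lie astrocytes, microglia, tanycytes along the ventricle, and oligodendrocytes, the cells that wrap axons in myelin, a membrane rich in cholesterol and in lipids with very long fatty acids.

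Levels are CPM, a gene's counts brought to a common library depth by the trimmed mean of M values (TMM), and changes are log2 fold changes, 12 weeks against 0 days, ± standard error from edgeR's quasi-likelihood test fitted to all 84 hypothalamus libraries (14 time points with 6 mice each). A gene is said to have risen or fallen where the p adjusted by Benjamini and Hochberg over all 15027 genes was below 0.05. Totals ran from 12245399 to 15549949 counts in the 12 libraries, so that a gene at 1 CPM rests on about 12 counts in the shallowest. The share of mitochondrial counts was 3.63% to 3.96% at 0 days and 3.51% to 4.05% at 12 weeks. Peptides of the labelled tissue were present in all 12 libraries: the lowest library had 53.6 CPM of Hcrt, 146 of Pmch, 49.2 of Avp, 88.5 of Oxt and 2.03 of Agrp. Of 102 tested marker genes of 7 neighbouring or foreign tissues (meninges, choroid plexus, pituitary, thalamus, cortex and hippocampus, striatum, blood) edgeR called 0 with a median log2 change of -0.03, 6 had an unadjusted p below 0.05, and DESeq2 and voom called 1 each. Their summed level ran from 1682 to 2772 CPM at 0 days and from 2037 to 2522 CPM at 12 weeks for the thalamus list, and from 487 to 920.4 and from 408 to 1283 CPM for the meninges list, with wide and overlapping ranges in both groups.

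Of the 15027 genes 465 rose (3.09%) and 557 fell (3.71%), 6.80% in all. Most changes were small: the median size among the 1022 was 0.20 on the log2 scale, 923 were below 0.50, and 21 reached 2-fold (8 higher and 13 lower). The median over all tested genes was -0.0007. In 394 of the 1022 the 2 groups of 6 mice did not overlap. Over all 15027 tested genes, called or not, the groups did not overlap in 212 that stood higher and 264 that stood lower. The other 72 libraries, from 1 day to 10 weeks, share no library with this comparison and were fitted for a slope per week. Over that time 1877 genes rose (12.5%) and 1948 fell (13.0%) of 14986. Of the 1021 genes called at 12 weeks that also had a slope, 979 had a slope of the same sign, and 750 were called in both with the same sign, which is 73.4% of the 12-week calls and 19.6% of the slope calls. Of the 1022 calls 517 were made with each of the 12 libraries left out in turn (226 higher and 291 lower), and 580 were also made in a fit of the 12 libraries alone.

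Genes of myelin were lower after 12 weeks. Of 20 tested genes of mature oligodendrocytes 12 fell (beside 3.71% of all genes) and 1 rose (beside 3.09%), with a list median of -0.39 on the log2 scale. In 11 of these 13 the groups did not overlap, beside 394 of all 1022 called genes. Cldn11, which seals the layers of the sheath (chromosome 3, 31149920 to 31164324 in GRCm38), stood at 259 to 307 CPM with a median of 272 at 0 days and at 170.2 to 181 with a median of 178 at 12 weeks. Every mouse at 12 weeks lay below every mouse at 0 days, and the log2 change was -0.64 ± 0.05 (adjusted p = 8.74e-18, the smallest among the genes that fell). Mog, a protein of the outer sheath surface, went from 98.9, 102 and 118 CPM (lowest, median and highest) to 62, 65.8 and 73, and Mal, a lipid raft protein of myelin, from 408, 425 and 454 to 282, 300.3 and 304. Neither gene's groups overlapped, and the log2 changes were -0.67 ± 0.06 and -0.52 ± 0.05 (adjusted p = 2.88e-14 and 2.37e-14).

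Structural genes of the sheath fell too. Mbp, which holds the membrane layers together from inside, went from 3817, 4229 and 4660.0 CPM to 3141, 3480.5 and 3512 (log2 change -0.33 ± 0.05, adjusted p = 5.02e-07). Its 12-week mice were all below all 0-day mice. Mag, Mobp, Cnp and Opalin fell as well, with changes of -0.46 ± 0.05, -0.40 ± 0.05, -0.41 ± 0.04 and -0.79 ± 0.10 on the log2 scale, again without overlap. Fa2h and Ugt8a, the enzymes that make the galactolipids of myelin, fell with changes of -0.58 ± 0.06 and -0.44 ± 0.07, and Aspa, which frees acetate in oligodendrocytes, with one of -0.43 ± 0.11 (adjusted p = 0.00489) with overlapping groups. Mbp, Mobp and Aspa are named after their values were seen. The 1 list member that rose was Ndrg1 (0.16 ± 0.04, adjusted p = 0.0167), also chosen after its values were seen, and its call was lost without mouse 4 of the 0-day group (adjusted p = 0.0651). All 12 falls were called with each library left out. In such bulk tissue fewer cells of a type and less RNA per cell cannot be told apart.

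**Figure D1:**
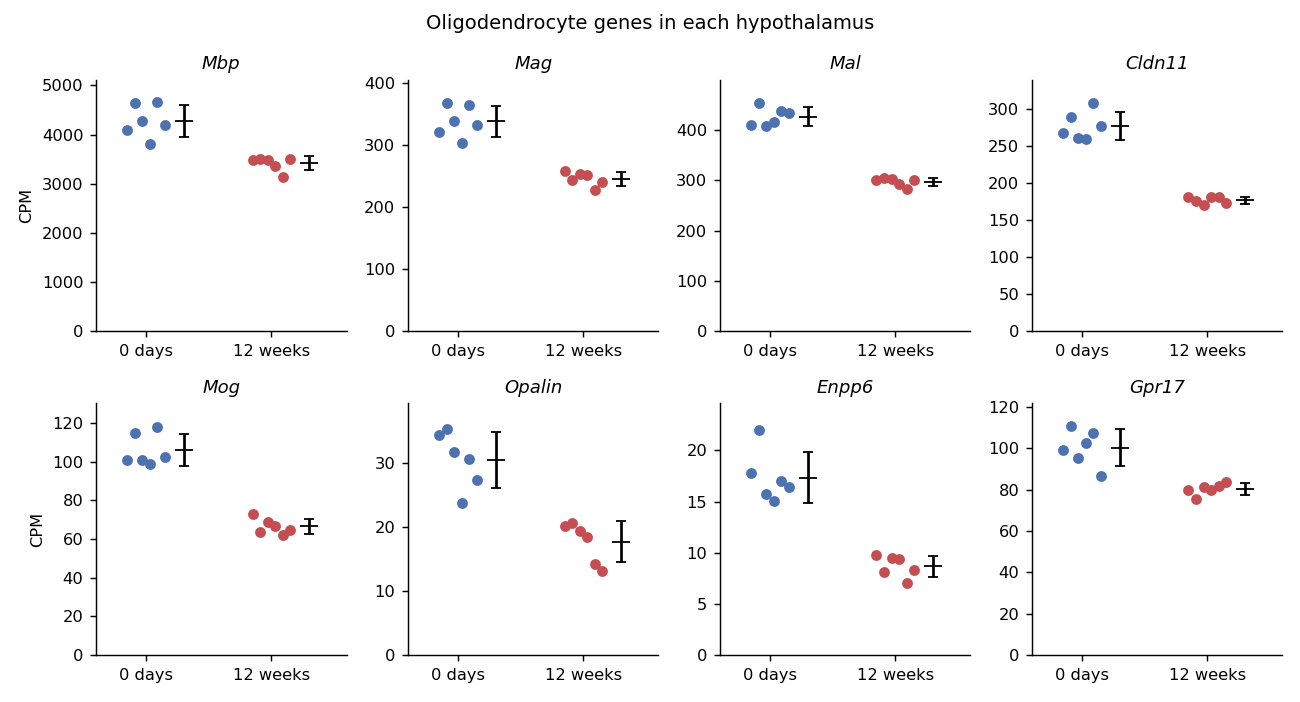
CPM of 8 oligodendrocyte genes in each hypothalamus at 0 days (blue, 6 mice) and 12 weeks (red, 6 mice), with the mean and SD beside the points and each axis starting at 0. In every panel all 12-week points lie below all 0-day points, for example 170.2 to 181 CPM against 259 to 307 for Cldn11.

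Genes of the earlier stages of the oligodendrocyte lineage were lower as well. Of 19 tested genes of newly formed oligodendrocytes 11 fell (beside 3.71% of all genes) and 0 rose by edgeR, with a list median of -0.21. At an unadjusted p below 0.05 there were 12, and DESeq2 and voom called 10 each. Enpp6, an enzyme marking cells that have just begun to make myelin (chromosome 8, 46986887 to 47096762), went from 15.1, 16.7 and 22 CPM to 7.06, 8.81 and 9.74. Its groups did not overlap, and its log2 change of -1.0 ± 0.10 (adjusted p = 7.95e-12) was larger than that of any of the 20 myelin genes. Gpr17, a receptor of committed precursors, fell from a median of 101 to 80.4 CPM (-0.32 ± 0.05). Sirt2, a deacetylase found in myelin, had a log2 change of -0.31 ± 0.03 and Fyn, a kinase that starts local myelin protein synthesis, one of -0.24 ± 0.04. The count of 11 was 7 without mouse 5 or 6 of the 0-day group, without mouse 2 or 5 of the 12-week group, and in a fit of the 12 libraries alone. Of 16 precursor genes 3 fell (beside 3.71% of all genes): Gpr17, Tnr (-0.25 ± 0.04) and Olig1 (-0.15 ± 0.04, adjusted p = 0.0159). Olig1 lost its call without mouse 2, 3 or 5 at 0 days or mouse 1 or 2 at 12 weeks (0.0556 to 0.0845). Pdgfra, the growth factor receptor that defines precursors, went from 76.8, 82.2 and 86.5 to 71.6, 73.4 and 82 CPM and was not called (adjusted p = 0.0593), though it was without mouse 2 of the 0-day group (0.0409) or mouse 5 of the 12-week group (0.0256).

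The intermediate time points place these falls along the course. Mean Cldn11 was 276 CPM at 0 days, between 233 and 277 from 1 day to 2 weeks, between 192 and 238 from 3 to 10 weeks, and 177 at 12 weeks. Over the 72 libraries from 1 day to 10 weeks 15 of 20 myelin genes and 18 of 19 genes of newly formed oligodendrocytes fell with time, beside 13.0% of all genes. Cldn11 changed by -0.57 ± 0.04 per 10 weeks on the log2 scale, Enpp6 by -0.73 ± 0.07, and Mbp by -0.35 ± 0.04. Gsn, Tspan2 and Nfasc, which belong to none of the lists, had 3 of the 10 smallest p among the genes that fell. Gsn, an actin-severing protein, had a log2 change of -0.64 ± 0.06, Tspan2, a membrane protein of oligodendrocytes, one of -0.48 ± 0.04, and Nfasc, an adhesion molecule of the node of Ranvier, one of -0.24 ± 0.03 (adjusted p = 5.47e-13, 3.33e-16 and 3.94e-11). Of these Gsn had the smallest p of any falling slope, -0.78 ± 0.04 per 10 weeks.

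**Figure D2:**
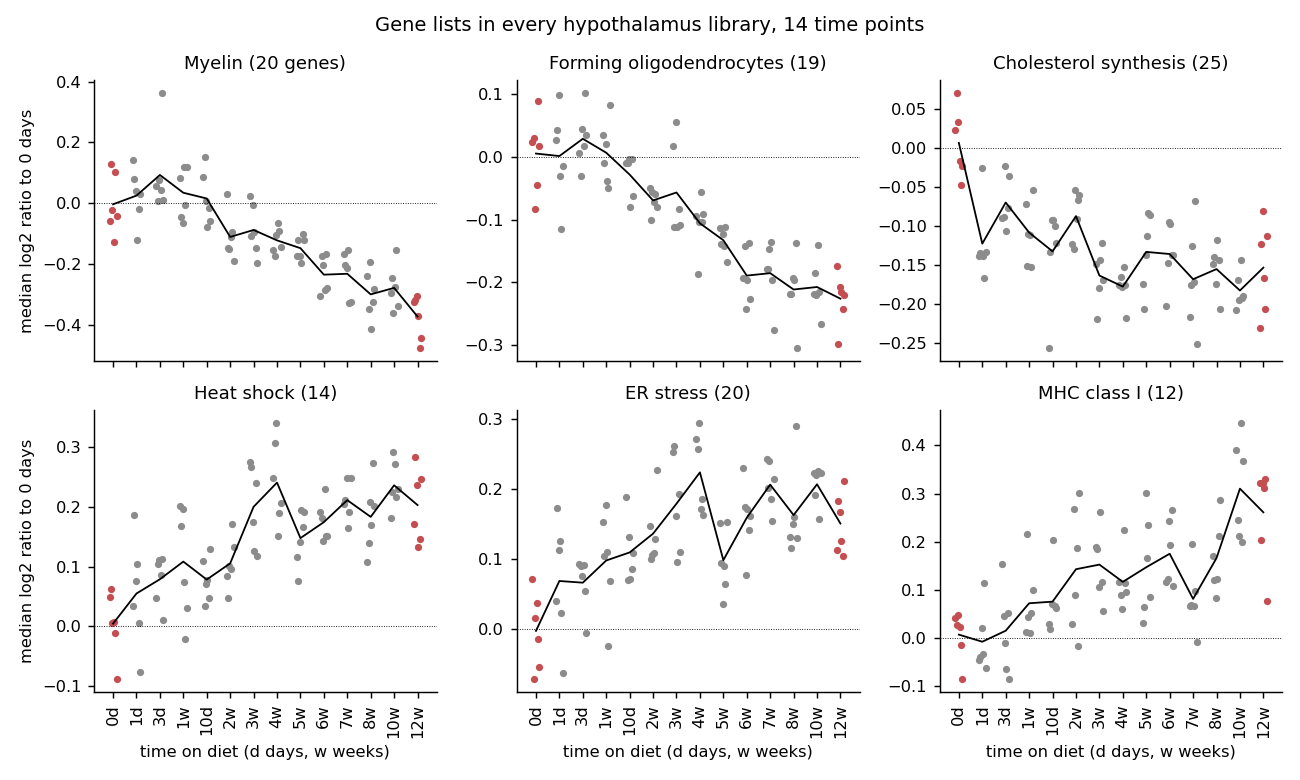
Median over the genes of 6 lists of the log2 ratio to the 0-day mean, for each of 84 hypothalamus libraries (points, 0 days and 12 weeks in red) with the mean of each time point (line). The myelin median stayed near 0 to 10 days and was -0.30 to -0.48 in the 12-week mice, whereas the cholesterol synthesis list stood at -0.14 at 1 day (median of the mice) and between -0.13 and -0.19 from 3 weeks on.

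Enzymes of cholesterol synthesis were lower at 12 weeks. Of 25 genes of the pathway 10 fell (beside 3.71% of all genes) and 0 rose at 12 weeks by edgeR, with a list median of -0.18. At an unadjusted p below 0.05 there were 15, and DESeq2 and voom called 10 each. With each library left out 6 of the 10 calls held. Hmgcs1, which catalyses an early step, went from 264, 294 and 303 CPM to 221, 244 and 263. All its 12-week mice lay below all 0-day mice (-0.24 ± 0.03, adjusted p = 5.02e-07). The later enzymes Lss and Dhcr7 fell with changes of -0.28 ± 0.05 and -0.32 ± 0.06 on the log2 scale. Mean Hmgcs1 was 288 CPM at 0 days, 249.7 at 1 day and between 230 and 255 at every later time up to 12 weeks, so its slope after the first day was -0.06 ± 0.02 per 10 weeks and was not called (adjusted p = 0.0545). Levels at 1 day were not tested against 0 days. Over those 72 libraries 9 of the 25 genes fell (beside 13.0% of all genes) and 1 rose (beside 12.5%).

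Of 20 genes of fatty acid synthesis and desaturation 11 fell (beside 3.71% of all genes) and 0 rose by edgeR. At an unadjusted p below 0.05 there were 11, and DESeq2 called 11 and voom 10. Fa2h and Ugt8a, counted under myelin above, are 2 of the 11, and 7 of the 11 calls held with each library left out. Scd2, the main desaturase of brain, went from 2502, 2566 and 2705 CPM to 2295, 2397 and 2477 (-0.11 ± 0.02, adjusted p = 0.000904). Its groups did not overlap although the change was small. Acaca, the first committed enzyme of the pathway, fell with a change of -0.15 ± 0.04 (adjusted p = 0.00357), a call lost (0.0586) with offsets that take out trends with GC content and transcript length.

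Chaperones rose. Of 14 heat shock genes, a mitochondrial pair among them, 12 rose (beside 3.09% of all genes) and 0 fell, with a list median of 0.20, and 9 of the 12 calls held with each library left out. The groups did not overlap in 6 of the 12, beside 394 of all 1022 called genes. Hspa8, the constitutive chaperone that folds new proteins, went from 1565, 1667 and 1718 CPM to 1814, 1869.8 and 1989 (0.18 ± 0.03, adjusted p = 9.11e-06). Its 12-week mice all lay above the 0-day mice. Its partner Dnajb1 went from 50.5, 57.8 and 59.6 to 59.9, 76 and 83.5 CPM (0.40 ± 0.08, 0.000176), also without overlap. Bag3, which directs clients to autophagy, rose by 0.40 ± 0.09, the co-chaperone Dnaja1 by 0.14 ± 0.03, the small chaperone Cryab by 0.26 ± 0.06, and Hsph1, which reloads Hspa8 with ATP, by 0.21 ± 0.05. The inducible Hspa1a rose by 0.57 ± 0.14 and Hspa1b by 0.95 ± 0.28 (adjusted p = 0.0235, 0.0728 without mouse 2 of the 12-week group). These 2 genes are near-identical copies, so the division of reads between them is uncertain. The mitochondrial pair Hspd1 and Hspe1 rose by 0.13 ± 0.03 and 0.16 ± 0.05, the first with an adjusted p of 0.0547 in the 12 libraries alone. Hspe1 lost its call without mouse 5 or 6 at 0 days or mouse 1, 2 or 6 at 12 weeks (0.0527 to 0.15), and Hsp90aa1 (0.12 ± 0.04) without mouse 5 or 6 at 0 days or mouse 2 at 12 weeks (0.0529 to 0.0743). The 2 members not called were Hspb1 (0.37 ± 0.13, adjusted p = 0.0528), which was called without mouse 2 or 5 at 0 days or mouse 4 at 12 weeks (0.0112 to 0.0438), and Dnajb5 (0.03 ± 0.06, 0.844). Cryab, Hsph1, Hspa1a, Hspd1, Hspe1, Hsp90aa1, Hspb1 and Dnajb5 are named after their values were seen.

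Genes of the unfolded protein response of the endoplasmic reticulum (ER) rose as well. Of its 20 genes 9 rose (beside 3.09% of all genes) and 0 fell, with a list median of 0.13, and 7 of the calls held with each library left out. Xbp1, the transcription factor of the pathway (chromosome 11, 5520659 to 5525893), went from 73.5, 76.9 and 85.7 CPM to 94.9, 96.4 and 107 (0.34 ± 0.06, adjusted p = 1.04e-05). The 2 groups did not overlap. Sdf2l1, a partner of the chaperone Hspa5, went from 6.72, 8.74 and 10.4 to 12.1, 12.8 and 14 CPM (0.59 ± 0.13, 0.00128), also without overlap. Manf, a secreted factor induced by ER stress, rose by 0.27 ± 0.06 and Atf4, the transcription factor of the amino acid response, by 0.20 ± 0.04. Named after their values were seen, Hspa5, the main chaperone of the ER, rose by 0.25 ± 0.06, Dnajc3 by 0.20 ± 0.05, Hsp90b1 by 0.16 ± 0.04, Calr, a calcium-binding chaperone, by 0.11 ± 0.03 and Creld2 by 0.33 ± 0.10. Calr lost its call without mouse 4 or 6 at 0 days or mouse 2 at 12 weeks (0.0518 to 0.109), and Creld2 without mouse 2, 5 or 6 at 0 days or mouse 1, 2 or 3 at 12 weeks (0.0518 to 0.0794). Over the 72 libraries from 1 day to 10 weeks 12 of 20 ER genes and 10 of 14 heat shock genes rose, beside 12.5% of all genes, and none of these fell.

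Some promoters of these genes hold the elements by which both responses are known to be switched on, and the stretches are printed so that the shared letters can be read beside the changes. Promoters are RefSeq windows of 250 bases before to 50 bases after each gene start in GRCm38, and both strands were searched. The ER stress element, CCAAT and CCACG with 9 free bases between them, or CGTGG and ATTGG likewise when read on the other strand, is in 39 of 32851 such windows (0.119%). It is in 6 of the 17 genes of the ER list that have a window: Hspa5, Dnajc3, Creld2, Calr and Hsp90b1, which rose, and Pdia6, which went from a median of 108 to 118 CPM and was not called (0.12 ± 0.05, adjusted p = 0.104, 0.0296 without mouse 1 of the 0-day group). Each stretch below is read 5′ to 3′ on the strand of its gene with the match in capitals, and it runs from chr2:34772010-34772058 for Hspa5 (plus strand), chr14:118937812-118937860 for Dnajc3 (plus), chr15:88819505-88819553 for Creld2 (plus), chr8:84847060-84847108 for Calr (minus), chr10:86705518-86705671 for Hsp90b1 (minus, 2 matches) and chr12:17266476-17266524 for Pdia6 (plus).
Hspa5: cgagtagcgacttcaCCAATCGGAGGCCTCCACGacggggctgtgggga
Dnajc3: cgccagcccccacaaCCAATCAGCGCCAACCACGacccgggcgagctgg
Creld2: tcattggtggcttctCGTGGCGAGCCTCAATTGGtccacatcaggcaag
Calr: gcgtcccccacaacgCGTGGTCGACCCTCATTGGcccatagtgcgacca
Hsp90b1: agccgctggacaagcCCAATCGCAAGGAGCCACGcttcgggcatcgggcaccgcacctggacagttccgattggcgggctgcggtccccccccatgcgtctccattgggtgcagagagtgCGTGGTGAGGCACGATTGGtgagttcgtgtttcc
Pdia6: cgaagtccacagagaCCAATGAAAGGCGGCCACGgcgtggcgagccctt
The core of the heat shock element, GAANNTTC, which, with its 2 free bases, reads the same on both strands, is in 2582 of the 32851 windows (7.86%). It is in 8 of the 10 heat shock genes that have a window, 7 that rose (Bag3, Dnaja1, Hspa1a, Hspa1b, Hspd1, Hspe1 and Hsph1) and Hspb1, which was not called. Hspd1 and Hspe1 are read from opposite strands of 1 shared promoter, so that their match is the same one (chr1:55088049-55088086, Hspe1 on the plus strand). Hspa1a (chr17:34972238-34972275, minus strand) and Hspa1b have the same letters around it, as near-identical copies, and Dnaja1 lies at chr4:40722329-40722366 (plus). Capitals again mark the match.
Hspe1: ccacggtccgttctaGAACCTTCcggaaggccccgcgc
Hspa1a: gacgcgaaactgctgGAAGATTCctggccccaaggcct
Dnaja1: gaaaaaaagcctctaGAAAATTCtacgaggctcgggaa
A match is a description of the letters and not a measured binding site.

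Cirbp and Rbm3, RNA-binding proteins known for their induction by cool temperature, were the 2 genes of a list of 4 that fell. This stood beside 3.71% of all genes, and no gene of the list rose. Cirbp went from 84.5, 92.3 and 100.2 CPM to 67, 69.9 and 73.7 (-0.38 ± 0.07, adjusted p = 3.12e-05), and Rbm3 from 50.9, 54.2 and 57 to 43.8, 46.5 and 50.6 (-0.21 ± 0.06, 0.00946). In both the groups did not overlap. Mean Cirbp was 91.7 CPM at 0 days and between 75.4 and 79.6 from 1 day to 2 weeks. Body temperature is not given in the sources used here.

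Among the feeding peptides of the arcuate nucleus Npy fell and Pomc rose. Npy, which raises food intake (chromosome 6, 49822710 to 49829507), stood at 8.55, 11.3 and 14.6 CPM at 0 days and at 6.95, 7.65 and 7.88 at 12 weeks. All 12-week mice lay below all 0-day mice, with a log2 change of -0.59 ± 0.14 (adjusted p = 0.00215). Pomc, the precursor of the melanocortins that lower food intake (chromosome 12, 3954951 to 3960642), went from 11.6, 15.7 and 22.8 to 22.8, 25.9 and 27.2 CPM. The groups touched without crossing, since the lowest 12-week mouse was level with the highest 0-day mouse, and the log2 change was 0.61 ± 0.15 (adjusted p = 0.00497). Agrp, the partner of Npy, went from 2.03, 3.00 and 5.29 to 2.13, 2.33 and 2.71 CPM, with overlapping groups, and was not called (-0.56 ± 0.21, adjusted p = 0.0855, 0.0372 without mouse 3 of the 0-day group). Cartpt, made in part by the Pomc neurons, was not called either (0.20 ± 0.14, 0.443).

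The intermediate times show the course of the 2 called peptides. Mean Npy was 11.4 CPM at 0 days, 13.1 at 1 day, 7.57 at 3 days and between 8.72 and 11.5 from 3 to 10 weeks, and its slope from 1 day to 10 weeks was -0.02 ± 0.11 per 10 weeks (adjusted p = 0.936). A fall over that time was therefore not called. Mean Pomc was 16.6 CPM at 0 days and between 16.0 and 23.6 up to 2 weeks, and it stayed between 22.2 and 26.3 from 3 to 10 weeks with a slope of 0.41 ± 0.11 per 10 weeks (adjusted p = 0.00234). Pcsk1, the protease that cuts the Pomc precursor, rose by 0.29 ± 0.07 (adjusted p = 0.0042), and Nts, a peptide that lowers food intake, by 0.32 ± 0.09 (0.0153), a call lost without mouse 5 of the 0-day group (0.0621) or mouse 5 of the 12-week group (0.0571). Pcsk1 was the 1 gene that rose among 13 that make and regulate melanocortin peptides (beside 3.09% of all genes). Another of the 13, the processing enzyme Cpe, fell (beside 3.71%), a call lost without mouse 5 at 0 days (0.0563) or mouse 2 at 12 weeks (0.0508). In all, 1 of 8 peptides that raise food intake fell (beside 3.71% of all genes) and 2 of 9 that lower it rose (beside 3.09%).

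**Figure D3:**
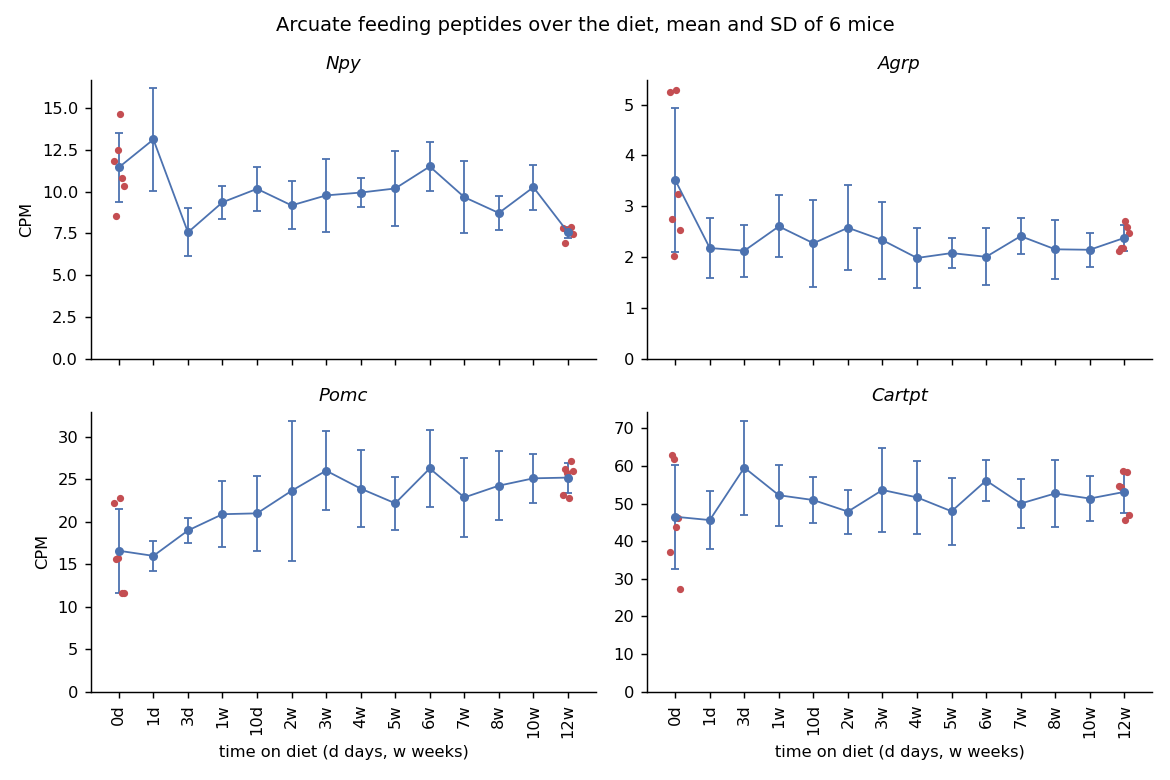
Mean CPM and SD of 6 mice at each of 14 time points for Npy, Agrp, Pomc and Cartpt, with the single mice at 0 days and 12 weeks in red. The 12-week Npy values (6.95 to 7.88 CPM) lie below all 0-day values, and mean Pomc is higher than at the start from 3 days onward.

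Among releasing hormones and the other neuropeptide genes edgeR made no calls. Of 14 releasing and magnocellular hormone genes edgeR called 0, 4 had an unadjusted p below 0.05, and DESeq2 called 1 and voom 0. Of 17 other neuropeptide and related genes edgeR called 0, 4 had an unadjusted p below 0.05, and DESeq2 and voom called 1 each, the receptor gene Trhr (0.32 ± 0.11 and adjusted p = 0.0518 by edgeR), named after its values were seen. Avp went from a median of 94.3 to 126 CPM (0.51 ± 0.21, adjusted p = 0.128), Oxt was at 118 and 118 (0.05 ± 0.15, 0.905), and Gnrh1, the releasing hormone of reproduction, went from 1.91 to 2.72 (0.60 ± 0.21, 0.0611). Gnrh1 is the gene that DESeq2 called (adjusted p = 0.0490), and it was called without mouse 3 of the 0-day group (0.0278). In the lateral hypothalamus Hcrt, the peptide of wakefulness, had a change of -0.24 ± 0.15 (0.386) and Pmch of 0.13 ± 0.13 (0.623). Crh, the releasing hormone of the stress axis, had a change of 0.33 ± 0.15 (0.191) and Trh, that of the thyroid axis, of 0.15 ± 0.13 (0.562). Of the 30 tested genes read whatever their p, most of them peptides and receptors of energy balance, 4 were called (beside 6.8% of all genes). These were Npy, Pomc, Serpina3n and Dio2. Dio2, which activates thyroid hormone in tanycytes and astrocytes, went from 20, 27.6 and 42.2 CPM to 31.8, 46 and 53.9 with overlapping groups (0.58 ± 0.17, adjusted p = 0.026). Its call was lost without mouse 1, 2 or 4 at 0 days (0.0731, 0.0607 and 0.0759) or mouse 5 at 12 weeks (0.0724).

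Genes of leptin signalling rose in part. Of 19 genes 4 rose (beside 3.09% of all genes) and 0 fell (edgeR, 8 at an unadjusted p below 0.05, 3 by DESeq2 and 4 by voom). The rise was not particular to hypothalamus. In neocortex 6 of 18 genes of the list rose (beside 13.3% of all genes) and in hippocampus 5 of 19 (beside 13.2%), and 0 fell in either. Stat3, the transcription factor that leptin activates, went from 71.2, 74.4 and 86.8 CPM to 89.9, 93.2 and 97.2 (0.30 ± 0.04, adjusted p = 3.67e-08). All 12-week mice lay above all 0-day mice, of which mouse 4 was the highest. Serpina3n, a protease inhibitor that Stat3 induces and that reactive astrocytes make (chromosome 12, 104406729 to 104414329), went from 19.8, 26.1 and 34.2 to 39.4, 41.2 and 45.1 CPM (0.67 ± 0.10, 1.06e-06), without overlap. Ptpn1, a phosphatase that limits leptin signalling, rose by 0.22 ± 0.06 (0.0163) and Atf3, a stress-induced transcription factor, by 1.05 ± 0.27 (0.00646) from a median of 0.78 to 1.85 CPM. The feedback inhibitor Socs3 was not called (0.54 ± 0.20, 0.0879, and 0.0256 without mouse 4 of the 12-week group), and neither were Lepr, the leptin receptor (-0.16 ± 0.23, 0.758), nor Mc4r, the receptor of the melanocortins (0.27 ± 0.17, 0.371).

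Of 10 tested complement genes 2 rose, C4b and C3, and of 12 genes of class I antigen presentation 6 did, beside 3.09% of all genes. Among 20 microglial and 19 astrocyte markers 1 each rose, which is close to that share. C4b, a complement component (chromosome 17, 34728380 to 34743882), went from 33.5, 34.5 and 43 CPM to 50.1, 63.2 and 71.7 (0.79 ± 0.10, adjusted p = 3.89e-09). Its groups did not overlap and its slope over the 72 libraries was 0.81 ± 0.07 per 10 weeks, with a mean of 36.4 CPM at 0 days and 63.1 at 12 weeks. C4b has a near-identical copy, C4a, and the authors' counting could split their reads. C3, the central complement component, rose by 0.76 ± 0.22 (adjusted p = 0.0196, 0.0580 without mouse 2 of the 12-week group). Il33, an alarm cytokine that oligodendrocytes and astrocytes hold in the nucleus, went from 51.5, 56.6 and 59.4 to 74.8, 76 and 80.9 CPM (0.45 ± 0.06, 3.56e-09), without overlap. It was the 1 gene that rose among 16 tested genes of cytokines and inflammation (beside 3.09% of all genes). Another of the 16, Rela, fell (beside 3.71%), a call lost without any of mice 2 to 6 at 0 days or mice 1 to 5 at 12 weeks (0.0588 to 0.204).

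The 6 of 12 class I genes that rose (beside 3.09% of all genes) were called with each library left out, though DESeq2 called 4 members. H2-K1, a class I heavy chain, went from 22.4, 23.8 and 25.4 CPM to 29.9, 30.6 and 31.6 (0.36 ± 0.08, adjusted p = 0.00128), without overlap. Tap2, which carries peptides into the ER, rose by 0.39 ± 0.08, H2-T22 by 0.23 ± 0.05, and B2m, the shared light chain, by 0.23 ± 0.06. H2-Q7 and H2-Q6 rose by 1.72 ± 0.34 and 1.29 ± 0.31 at medians of 0.508 to 1.45 and 0.714 to 1.54 CPM, and as close copies they are uncertain. B2m and H2-Q6 are named after their values were seen. Of 31 interferon-induced genes 1 rose, close to the 3.09% of all genes, Ifi27 (0.43 ± 0.08, adjusted p = 0.000176). Of 7 class II genes edgeR, DESeq2 and voom called 0, with 0 at an unadjusted p below 0.05.

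Of 20 microglial markers 1 rose (beside 3.09% of all genes), the lysosomal protease Ctss. It went from 39.1, 42.6 and 46.6 to 49.3, 54.7 and 61.6 CPM (0.36 ± 0.05, adjusted p = 7.26e-07) without overlap. Cx3cr1, the fractalkine receptor of microglia, was not called (-0.10 ± 0.07, 0.438), and the summed level of the list was 488 to 527 CPM at 0 days and 496 to 555 at 12 weeks. Among 12 tested genes of activated microglia and macrophages 0 rose and 1 fell, Cd9 (beside 3.71% of all genes). Its call was lost without mouse 1 or 5 at 0 days or mouse 2 at 12 weeks (0.0639 to 0.0901). Of 14 genes of reactive astrocytes 4 rose (beside 3.09% of all genes), C4b, Serpina3n, C3 and Osmr, a cytokine receptor (0.59 ± 0.15, adjusted p = 0.00744). Gfap, the filament protein by which reactive astrocytes are usually recognised, went from 141, 182 and 191 to 169, 188 and 195 CPM and was not called (0.09 ± 0.09, 0.66). Of 19 astrocyte markers 3 fell (beside 3.71% of all genes): the water channel Aqp4 (-0.38 ± 0.07, 0.000167), the bicarbonate transporter Slc4a4 (-0.12 ± 0.03) and Ntsr2 (-0.15 ± 0.04). The 1 that rose was the gap junction gene Gjb6 (0.20 ± 0.06, 0.0349), a call lost without mouse 1, 2, 3 or 6 at 0 days or mouse 5 or 6 at 12 weeks (0.0533 to 0.0976).

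General neuronal genes had no calls. Of 12 general neuronal markers, 20 synaptic genes and 22 glutamate receptor genes edgeR called 0 in each list, with 2, 1 and 3 genes at an unadjusted p below 0.05. DESeq2 called 0 in each, and voom called 1 glutamate receptor gene. The summed level of the neuronal markers was 6917 to 7349 CPM at 0 days and 6925 to 7297 at 12 weeks. Of 21 genes of GABA signalling 3 rose (beside 3.09% of all genes). Among them were Gad1, which makes GABA (0.17 ± 0.05, adjusted p = 0.0131) and the receptor subunit Gabrg1 (0.20 ± 0.06, 0.0126), both with overlapping groups. Gad1 lost its call without mouse 1 at 0 days (0.0824) and Gabrg1 without mouse 2 at 12 weeks (0.0721).

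Of 16 genes of the brain matrix 4 fell (beside 3.71% of all genes), Tnr, Ncan, Bcan and Adamts4. Ncan, a proteoglycan of the nets around neurons, went from 144, 149 and 167 CPM to 115, 123 and 131 (-0.31 ± 0.05, adjusted p = 1.89e-05), and Adamts4, a protease that cuts such proteoglycans and is also made by oligodendrocytes, had a change of -0.46 ± 0.07 (5.9e-06). Neither gene's groups overlapped. Bcan, another proteoglycan of the nets, had a change of -0.09 ± 0.03, a call lost without mouse 2, 3, 5 or 6 at 0 days or mouse 2, 4 or 5 at 12 weeks (0.0560 to 0.0929). Of 18 immediate early genes, which neurons switch on when active, 3 rose (beside 3.09% of all genes): Fosb (0.69 ± 0.18, adjusted p = 0.00743), Klf4 (0.51 ± 0.13, 0.00652) and Fosl2 (0.45 ± 0.13, 0.0244). Fosl2 lost its call without mouse 1 or 5 at 0 days or mouse 3 or 5 at 12 weeks (0.0527 to 0.0762). Fosb and Fosl2 also rose over the 72 other libraries, by 1.11 ± 0.13 and 0.80 ± 0.10 per 10 weeks. A rise of this list was not particular to hypothalamus. In neocortex 13 of the 18 rose (beside 13.3% of all genes) and in hippocampus 7 (beside 13.2%), and 0 fell in either. The change in hypothalamus was lower for 2 genes against each region (beside 5.55% and 6.02%) and higher for 0. Of 16 core clock genes edgeR, DESeq2 and voom called 0, with 2 at an unadjusted p below 0.05. Dbp, a transcription factor under clock control, fell from 81.4, 89.9 and 99.5 to 53.7, 63.9 and 67.3 CPM (-0.54 ± 0.06, adjusted p = 9.49e-10), without overlap. The hour of dissection is not given in the sources used here, and its part in these genes was not tested. Of 18 genes of cell division 1 fell, close to the 3.71% of all genes. It was the topoisomerase Top2a (-1.39 ± 0.38, adjusted p = 0.0138, 0.0685 without mouse 5 of the 0-day group), from a median of 1.80 to 0.785 CPM.

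**Figure D4:**
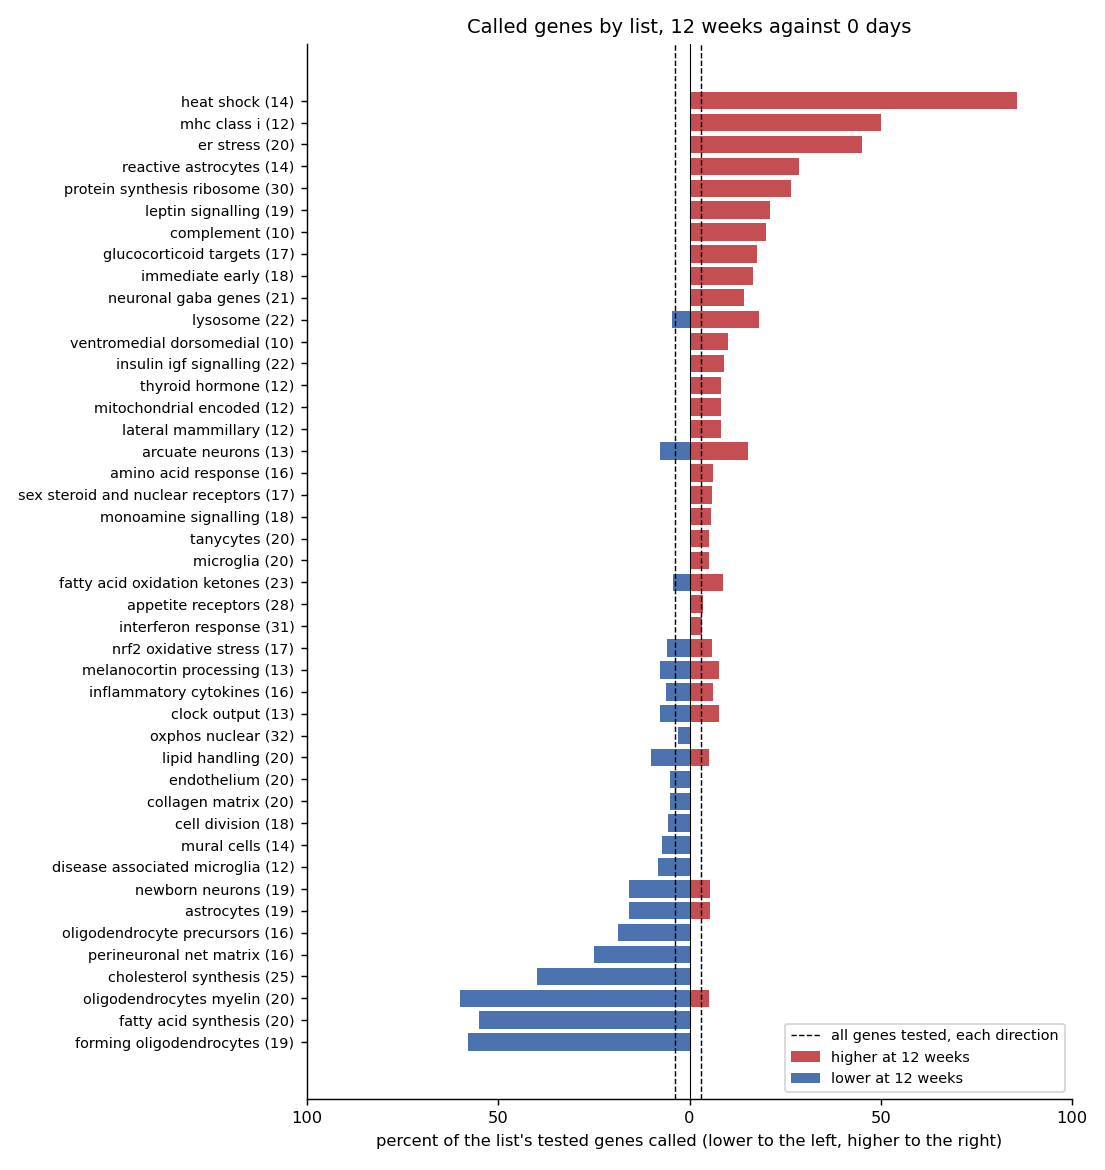
Percent of the tested genes of each list that rose (red, right) or fell (blue, left) at 12 weeks against 0 days, for lists of at least 10 tested genes with a call, the number tested in brackets. Dashed lines mark the percent over all genes in each direction (3.09% and 3.71%), and the bars of heat shock (12 of 14), class I (6 of 12) and ER stress genes (9 of 20) reach farthest to the right, and those of myelin (12 of 20), forming oligodendrocytes (11 of 19) and fatty acid synthesis (11 of 20) farthest to the left.

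The genes with the largest folds and smallest p were of mixed kinds. Abca8a, a lipid transporter of the ABC family (chromosome 11, 110025634 to 110095978), had the smallest p of all genes: it went from 7.39, 7.95 and 12.3 CPM to 17.9, 21.8 and 23.7 (1.29 ± 0.09, adjusted p = 1.67e-19). All 12-week mice lay above all 0-day mice, and mean Abca8a was between 8.43 and 11.9 CPM up to 2 weeks and between 13.4 and 20.5 from 3 to 10 weeks. Xdh, the xanthine oxidase of purine breakdown, rose from 6.18, 7.97 and 12.4 to 16.3, 18.9 and 21.8 CPM (1.06 ± 0.18, 1.66e-05), Apold1, an early response gene of endothelium, by 0.95 ± 0.18 and Inhba, a subunit of activin, by 0.87 ± 0.19, each without overlap. The splicing regulators Srsf7 and Tra2a rose by 0.25 ± 0.03 and 0.32 ± 0.05 (adjusted p = 2.91e-08 and 4.08e-07), again without overlap. The RNA-binding protein Hnrnpa2b1, the phosphatase subunit Ppp1cb and the vesicle protein Syt4 had 3 of the 5 smallest p of the rising slopes (0.17 ± 0.02, 0.20 ± 0.02 and 0.31 ± 0.03 per 10 weeks), and all 3 rose at 12 weeks, by 0.13 ± 0.02, 0.12 ± 0.03 and 0.24 ± 0.04, with Ppp1cb at an adjusted p of 0.0850 in the 12 libraries alone.

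Among the genes with the lowest folds several varied widely between the 0-day mice. Scube1 went from 7.32, 22.4 and 41.4 CPM to 5.08, 8.24 and 11.8 (-1.53 ± 0.49, adjusted p = 0.0394), Chrna3, a nicotinic receptor subunit, from 4.31, 8.98 and 15.7 to 3.09, 4.14 and 5.03 (-1.26 ± 0.38, 0.0281), and the transcription factor Irx2 from 4.20, 7.99 and 10.4 to 2.82, 4.01 and 6.15 (-0.82 ± 0.27, 0.0431). In all 3 the groups overlapped. Scube1 lost its call without mouse 1, 5 or 6 at 0 days or any of mice 1 to 5 at 12 weeks (0.0544 to 0.130), Chrna3 without mouse 1, 5 or 6 at 0 days or mouse 2, 3 or 5 at 12 weeks (0.0524 to 0.102), and Irx2 without mouse 1, 2, 5 or 6 at 0 days or any of mice 2 to 5 at 12 weeks (0.0560 to 0.135). The potassium channel subunit Kcng4 had a change of -0.94 ± 0.24 (adjusted p = 0.00651) and Hipk2, a nuclear kinase, one of -0.76 ± 0.12 (9.11e-06), both with overlapping groups. Pdlim2, an actin-associated protein, went from 16.3, 18.9 and 22.4 to 9.66, 10.7 and 13 CPM without overlap (-0.79 ± 0.09, adjusted p = 1.48e-09).

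The neocortex and hippocampus of the same series, with 6 libraries at each of the same 2 time points, show which of these changes were shared within the brain. They use other libraries, and the labels do not say whether same-numbered libraries share a mouse. The difference of the 12-week change between regions was tested in a fit of 24 libraries for each pair. More genes were called in these regions than in the hypothalamus, 3720 in neocortex (13.3% higher and 11.8% lower) and 3798 in hippocampus (25.6%, 13.2% higher and 12.4% lower). The change in hypothalamus differed from that in neocortex for 1297 of 14762 genes (8.79%, 477 higher and 820 lower) and from that in hippocampus for 1424 of 14734 (9.66%, 537 higher and 887 lower). Of the 1022 genes called in hypothalamus 203 differed from neocortex and 230 from hippocampus. Several lists moved in these regions too. ER stress genes rose in 15 of 20 cases in neocortex and 7 of 20 in hippocampus, and 0 fell. Among 14 heat shock genes 10 rose and 1 fell in neocortex, and 6 rose and 0 fell in hippocampus. Cholesterol synthesis genes fell in 5 of 25 cases and rose in 2 in neocortex, and fell in 17 of 24 in hippocampus. Genes of newly formed oligodendrocytes fell in 11 of 19 and 11 of 18 cases.

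The fall of myelin genes was smaller in hypothalamus than in hippocampus. In hippocampus the list median was -0.79 with 15 of 20 genes lower, and in neocortex -0.34 with 12 lower and 3 higher. Mog changed by -0.67 ± 0.06 in hypothalamus, -0.85 ± 0.06 in neocortex and -1.23 ± 0.11 in hippocampus on the log2 scale, and Mag by -0.46 ± 0.05, -0.35 ± 0.05 and -1.04 ± 0.10. Of the 20 genes the change in hypothalamus was higher (less negative) than in hippocampus for 12 and lower for 0 (beside 3.64% and 6.02% of all genes), with Mag at 0.57 ± 0.09 (adjusted p = 0.000105) and Mog at 0.55 ± 0.09 (0.000165). With the GC and length offsets the count was 10. Against neocortex 1 of 20 was higher and 1 lower (beside 3.23% and 5.55% of all genes), the lower one being the iron carrier Trf (-0.21 ± 0.07, 0.0493, and 0.0894 with the offsets), named after its values were seen.

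Some of the rises were larger in hypothalamus and others smaller. The change of the 20 ER stress genes was lower in hypothalamus for 3 against neocortex and 2 against hippocampus (beside 5.55% and 6.02% of all genes), and higher for 0. Among single genes the following were looked at. Serpina3n changed by 0.67 ± 0.10 in hypothalamus, 0.16 ± 0.13 in neocortex and -0.07 ± 0.07 in hippocampus, a difference of 0.74 ± 0.12 from hippocampus (adjusted p = 0.00023) and 0.51 ± 0.17 from neocortex (0.0567, not called, but 0.0304 with the replicate number as a block and 0.0407 in a fit of every library of both regions). Ctss exceeded both regions, by 0.42 ± 0.09 (0.00205) against neocortex and 0.29 ± 0.09 (0.0339) against hippocampus, the second not called with the offsets (0.14, adjusted p = 0.520). Stat3 exceeded neocortex by 0.21 ± 0.06 (0.0271), while its difference of 0.10 ± 0.06 from hippocampus was not called (0.291). Pomc exceeded hippocampus by 1.13 ± 0.34 (0.0326, and 0.119 with the offsets), and its difference of 0.89 ± 0.33 from neocortex was not called (0.0832, but 0.011 with the block). C4b, Il33 and Xbp1 rose in all 3 regions without a called difference: C4b changed by 0.79 ± 0.10, 0.62 ± 0.08 and 0.67 ± 0.09 in hypothalamus, neocortex and hippocampus. Abca8a also rose in all 3, by 1.16 ± 0.10 in neocortex and 0.77 ± 0.10 in hippocampus, the latter less than in hypothalamus by 0.51 ± 0.16 (0.0462, and 0.0718 with the offsets). Npy fell in all 3, with changes of -0.31 ± 0.05 in neocortex and -0.22 ± 0.08 in hippocampus, and its differences of -0.29 ± 0.11 and -0.38 ± 0.14 were not called (0.106 and 0.0855). They were called with the offsets (-0.52 and -0.59, adjusted p = 0.0072 and 0.0337), and that from hippocampus also with the block (0.0288).

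**Figure D5:**
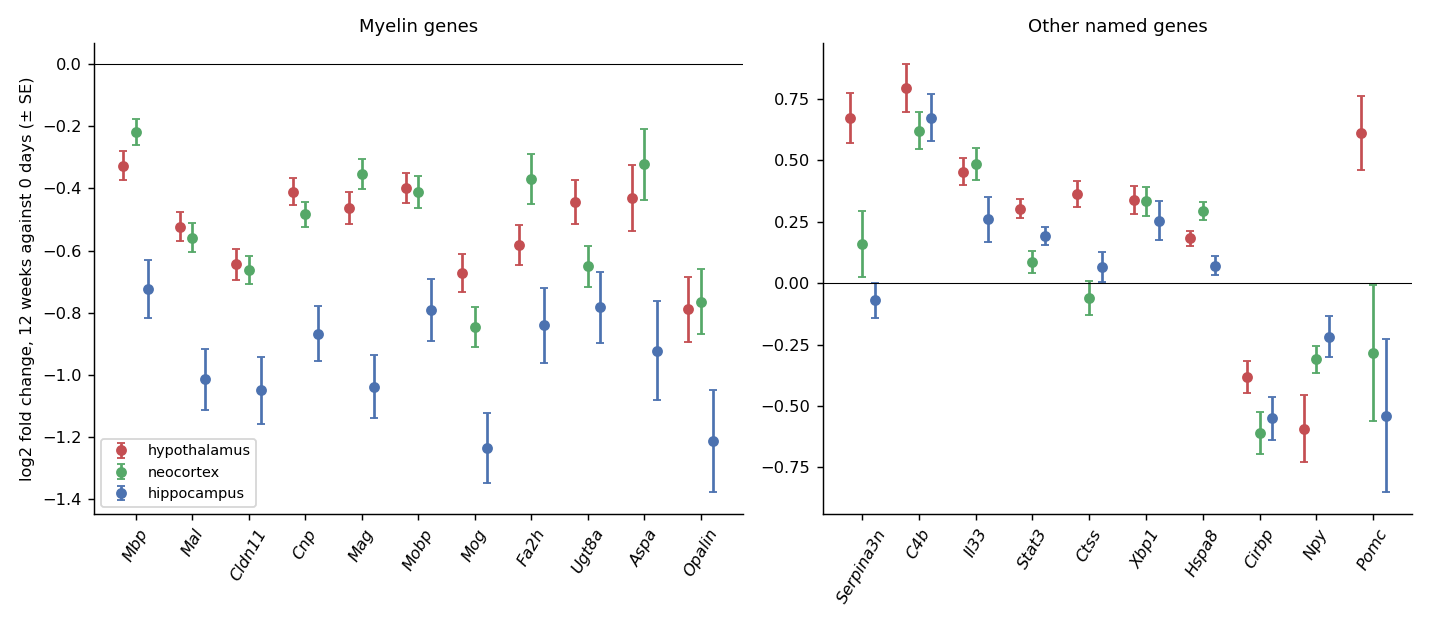
Log2 fold change ± standard error, 12 weeks against 0 days (6 mice each), in hypothalamus, neocortex and hippocampus, for 11 of the 12 myelin genes that fell in hypothalamus (left) and 10 other named genes (right). The hippocampus points of the myelin genes lie lowest in each column, between -0.72 and -1.23, and Serpina3n, Ctss and Pomc stand highest in hypothalamus.

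Among the differences between regions with the smallest p were those of ribosomal and respiratory chain genes, and their counts moved with offsets for transcript properties. Within hypothalamus 8 of 30 ribosomal protein genes rose (beside 3.09% of all genes) and 0 fell. That count was 4 without mouse 2 of the 0-day group, 2 without mouse 6 of the 12-week group and 3 in a fit of the 12 libraries alone. Of 32 respiratory chain genes 1 fell (beside 3.71%), Uqcr11 (-0.15 ± 0.04, adjusted p = 0.029). Its call was lost without mouse 1 or 5 at 0 days or mouse 2 or 3 at 12 weeks (0.0806 to 0.109). Against hippocampus 27 of the 30 ribosomal genes were higher (beside 3.64% of all genes), but 2 with the GC and length offsets. Of the 32 respiratory genes 18 were higher, but 1 with the offsets. Against neocortex the counts were 14 and 12 (beside 3.23%), and 9 and 3 with the offsets. In hippocampus itself (12.4% of all genes lower) 24 ribosomal and 30 respiratory genes fell and 0 rose. In neocortex (11.8% lower) 14 ribosomal genes fell and 1 rose, and 16 respiratory genes fell and 3 rose. Rps29 differed from neocortex by 1.03 ± 0.09 (adjusted p = 2.98e-08) and Atp5k, a subunit of ATP synthase, by 1.02 ± 0.10 (1.93e-07), which were 0.68 and 0.81 with the offsets. Rpl39, Atp5o and Ndufb1-ps, the other 3 of the 5 highest differences from neocortex by p, stood at 0.77 ± 0.07, 0.65 ± 0.07 and 0.82 ± 0.10. Among these 5 genes only Rpl39 was called in hypothalamus itself. Of the 5 lowest, Lars2 (-1.18 ± 0.14), Fmnl1 (-0.57 ± 0.06), Lrp1 (-0.38 ± 0.03) and Zmiz1 (-0.35 ± 0.04) were not called in hypothalamus itself. Against hippocampus the 5 highest included the ribosomal genes Rpl14, Rps24, Rpl19 and Rplp0 (0.32 to 0.44), of which Rpl14 and Rps24 were 0.32 and 0.33 with the offsets and the other 2 lower, and the 5 lowest were Kmt2d, Ksr2, Celsr3, Zfhx2 and Prrc2b (-0.64 to -0.37). Of these 9 genes Rps24 (0.12 ± 0.03, adjusted p = 0.00646) and Ksr2 (-0.15 ± 0.04, 0.0068) were called in hypothalamus itself. Ksr2 lost its call with the offsets (0.236) and in the 12 libraries alone (0.0842). The offsets remove any smooth trend of the change with GC content and length, and the source of such a trend was not tested.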

How the data were processed

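Poly(A) RNA of each organ was sequenced from 6 mice per time point, with strand-specific libraries per the labels' protocols. The authors deposited whole-number counts of reads per gene symbol for 1104 libraries. The submitters' processing notes name featureCounts 1.6.3, HISAT2 2.1.0, SAMtools 1.9, Trimmomatic 0.38 and FastQC 0.11.7, and the build GRCm38 (mm10). Which annotation and strand setting featureCounts had is not stated there, so reads of overlapping and antisense genes may not be separated. Of the columns 252 were used (hypothalamus, neocortex and hippocampus) and 852 were not. Libraries had 10604499 to 16696016 counts in the 84 of the hypothalamus, and that sets the precision of low genes.

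Genes were kept by filterByExpr, scaled by TMM and tested two-sided with edgeR 4.0.16 (quasi-likelihood, R 4.3.3) with 1 coefficient per time point over the 84 hypothalamus libraries, with Benjamini-Hochberg adjustment over all genes tested and a threshold of 0.05. Slopes per week used the 72 libraries from 1 day to 10 weeks, and differences between regions used the interaction in 24 libraries. Nothing says whether mice shared a litter or cage, so p-values measure the spread between these mice. Alternatives were DESeq2 1.42.0, voom with quality weights (limma 3.58.1), DESeq2 size factors in edgeR, no filter, the 12 libraries alone, a replicate block, each library left out, and offsets that take out trends with GC content and length (splines, 5 degrees of freedom). Offsets used GENCODE release M21, in which 20319 of 20646 symbols had a length and GC content. Coordinates come from the same release (GRCm38), and promoter sequences come from RefSeq on GRCm38.p6. No technical batch is given in the labels.

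Mice dissected at 0 days and at 12 weeks are different animals, and their same-numbered deviations had correlations of -0.067 to 0.074. Between regions a number may mark a mouse, which the labels do not say, and the main tests of differences treated the libraries as independent. Of 12 hypothalamus libraries 10 correlated best with their own number in neocortex and 6 in hippocampus. All 30 pairs of libraries within a group differed beyond sampling noise (lowest chi-square per degree of freedom 2.31). On simulated counts for the 12-week comparison with 14967 genes, 50 genes were changed at each fold. Of the changed genes 80% were recovered at 1.25-fold, 96% at 1.5-fold, 98% at 2-fold and 100% at 4-fold, and 6 of 193 calls were false. Recovery was not split by expression level. It therefore cannot be applied to uncalled genes of few CPM, such as Agrp, Gnrh1, Lepr and Mc4r.

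Genes named are the 8 largest log2 folds per direction among called genes with a mean of at least 5 CPM, the 8 smallest p per direction, the 4 smallest p of each gene list, 30 tested genes read whatever their p, and the 5 smallest p per direction of each slope or difference. A few of these genes are not reported here, though list counts include them. From the rest the text takes the ones it describes, and others are marked as chosen after their values were seen. The comparison, the lists and the rule were chosen with earlier results of these data known.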

Additional observations from a re-analysis of the deposited data

Results flagged for a closer look

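In 10 groups of 6 mice, out of 274 gene and group pairs looked at, the highest or lowest mouse stood far from the other 5 by Dixon's criterion at the 95% level. Chance flags about 1 in 20 such groups. At 0 days these were Fa2h in mouse 2 (83.8 CPM), Mc4r in mouse 4 (4.20), Stat3 in mouse 4 (86.8) and Atf3 in mouse 6 (1.17), each the highest. At 12 weeks the highest were Acaca in mouse 1 (103.6 CPM), Lepr in mouse 5 (5.20) and Rpl14 in mouse 6 (196.4), and the lowest were Hspd1 in mouse 5 (179.8), Gad1 in mouse 6 (413.9) and Lrp1 in mouse 2 (806).

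The change from 0 days to 12 weeks differed between hypothalamus and another region in 34 of 66 differences looked at for single genes, by edgeR's test of the interaction. A part of these genes was named for having the smallest p in this same test, so 34 of 66 is not a share of genes in general. Over all genes 8.79% differed from neocortex and 9.66% from hippocampus. On the log2 scale, hypothalamus minus hippocampus, the myelin genes stood at 0.40 (Cldn11), 0.48 (Mal), 0.55 (Mog), 0.45 (Cnp), 0.57 (Mag), 0.39 (Mobp), 0.39 (Mbp) and 0.49 (Trf). Other genes that changed more upward in hypothalamus were Pomc (1.13), Serpina3n (0.74), Ctss (0.29), Abca8a (0.51), Rpl19 (0.34), Rplp0 (0.32), Rpl14 (0.44) and Rps24 (0.36). Those that changed more downward were Kmt2d (-0.64), Zfhx2 (-0.41), Prrc2b (-0.37), Celsr3 (-0.49) and Ksr2 (-0.61).

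Against neocortex the higher differences were those of Cirbp (0.22), Stat3 (0.21), Ctss (0.42), Rps29 (1.03), Rpl39 (0.77), Atp5k (1.02), Atp5o (0.65) and Ndufb1-ps (0.82), and the lower ones were those of Trf (-0.21), Lrp1 (-0.38), Fmnl1 (-0.57), Zmiz1 (-0.35) and Lars2 (-1.18). Cirbp fell in all 3 regions, with log2 changes of -0.38 ± 0.07 in hypothalamus, -0.61 ± 0.09 in neocortex and -0.55 ± 0.09 in hippocampus. Its difference from neocortex was not called with the GC and length offsets (adjusted p = 0.0681) or in a fit of every library of both regions (0.225).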

How the results depend on the processing

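Of the counts answering a comparison 329 values under alternatives stayed within 1.5 times the value reported and 22 did not. Fitted to the 12 libraries alone, 271 genes rose and 342 fell, with 7 genes of newly formed oligodendrocytes lower and 3 ribosomal genes higher. In place of the slope, 10 weeks against 1 day gave 670 genes higher and 708 lower, with 10 genes of newly formed oligodendrocytes and 3 of cholesterol synthesis lower and 7 ER stress genes higher. With the GC and length offsets, an alternative chosen for these counts after seeing the data, 1292 genes fell with the slope and 630 differed from neocortex and 304 from hippocampus. With them the ribosomal and respiratory genes higher than in hippocampus were 2 and 1, and than in neocortex 9 and 3. Leaving out each library in turn gave 370 to 521 genes higher and 421 to 611 lower at 12 weeks, 7 to 12 genes of newly formed oligodendrocytes lower and 2 to 9 ribosomal genes higher. The causes were not tested beyond the smaller number of libraries.

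With the replicate number as a block 530 genes rose and 616 fell, 1884 and 1965 had a slope, and 1487 and 1439 differed from neocortex and hippocampus. The block raised the myelin genes higher than in hippocampus from 12 to 15, and the other counts given for the oligodendrocyte, lipid synthesis, chaperone, class I and ribosomal lists moved by less than 1.5 times. Same-numbered mice at 0 days and 12 weeks had correlations of -0.067 to 0.074, and 0 of 6 correlated best with their own number. Between regions, where the labels do not say whether a number marks a mouse, same-numbered libraries had correlations of -0.023 to 0.16 with neocortex (10 of 12 hypothalamus libraries best with their own number) and -0.13 to 0.19 with hippocampus (6 of 12), a hint from the data and not from the design.

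For named genes 2462 values under alternatives kept direction and side of the threshold, 98 lost their call and 28 gained one. Beyond single libraries, calls were also lost with the offsets for Olig1, Acaca, Ksr2, Hspe1, Hsp90aa1, Gabrg1, Bcan and Irx2, in the 12 libraries alone for Hspd1, Ppp1cb, Ksr2, Ndrg1, Olig1, Hspe1, Bcan and Uqcr11, by voom for Hspa1b, Hspe1, Scube1 and Chrna3, and with no filter for Irx2. With the offsets edgeR also called Hspb1 (adjusted p = 0.0269), Rpl14 (0.0350) and Kmt2d (0.144, adjusted p = 0.00405), which the main fit did not call. Values that changed sign were small and not called. With each library left out in turn Oxt ran from -0.0222 to 0.129, below 0 without mouse 5 or 6 at 0 days or mouse 6 at 12 weeks. Fmnl1 ran from -0.0232 to 0.0257, below 0 without mouse 1 at 0 days or mouse 6 at 12 weeks, and was at -0.0020 by voom. Lars2 ran from -0.0264 to 0.139, below 0 without mouse 4 at 0 days, and Kmt2d from -0.0040 to 0.0404, below 0 without mouse 6 at 12 weeks. With the offsets Lrp1 was at 0.0170, Zfhx2 at 0.0276, Prrc2b at 0.0480 and Celsr3 at 0.0354. Among the 1022 calls 782 were also made with the offsets and 0 reversed. Genes near 1 CPM, such as Atf3, H2-Q7 and Top2a, rest on few counts.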
